A study of Mus musculus with 6 samples.

Results

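Stellate cells, pericytes and fibroblasts are connective tissue cells of the islet. Transcripts of such cells marked 160 of 27004 kept barcodes in 6 droplet libraries of islets. There was 1 library from each of 3 WT mice (WT1 to WT3) and 3 β14-3-3ζ–KO mice (KO1 to KO3). The cells were chosen by their measured UMIs. A barcode counted as mesenchymal if it had at least 500 detected genes, at most 10% of its unique molecular identifiers (UMIs) on mitochondrially encoded genes, under 25% on *Ins1* and *Ins2*, at most 1 UMI on the endothelial genes *Cdh5* and *Pecam1*, no UMI of the leukocyte gene *Ptprc*, and a UMI on at least 3 of 7 genes: *Col1a1*, *Col1a2*, *Col3a1*, *Dcn*, *Pdgfrb*, *Pdgfra*, and *Rgs5*. WT1 to WT3 gave 19, 48, and 5 mesenchymal cells, and KO1 to KO3 gave 14, 53, and 21. In KO mice the *Ins1*Cre-Thor allele removed *Ywhaz*, which encodes 14-3-3ζ, between loxP sites around exon 4 in β cells, so the mesenchymal cells of KO mice are not the cells that the allele targets. The WT littermates carried Cre as well. All mice were on a C57/BL6 background and aged 12 to 14 weeks, and islets recovered overnight before they were dispersed and dead cells were removed. Comparisons between genotypes therefore describe cells from the same islet preparations as the deleted β cells, over 3 mice against 3. The position of the cells in the tissue was not measured, and some carried mesothelial or Schwann cell markers, as given below.

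As background, pericytes sit on the capillary wall inside the basement membrane that they share with the endothelium. They are known for the receptor PDGFRβ and the G protein regulator RGS5, and they adjust capillary tone. Fibroblasts and stellate cells lie in the stroma around ducts, vessels, and islets, make fibrillar collagen and proteoglycans, and secrete chemokines and complement. Quiescent stellate cells are known for stored vitamin A and for the filament protein desmin, and they take on smooth muscle genes when activated. Stromal cells of lymphoid tissue attract lymphocytes with the chemokines CCL19, CCL21, and CXCL13.

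The genes in the rule set the membership, and their values are given as a description. *Pdgfrb*, the receptor for PDGF-B, had a UMI in 147 of the 160 cells. The fibrillar collagen genes *Col1a1*, *Col1a2*, and *Col3a1* had a UMI in 112, 127, and 125 cells. *Dcn*, which encodes the collagen-binding proteoglycan decorin, was found in 124 cells. *Pdgfra*, the receptor of fibroblasts and stellate cells, was found in 89 cells, and *Rgs5* was found in 79. In barcodes with at least 25% insulin UMIs, which should lack these genes, a UMI of *Pdgfrb* was found in 0.195% to 0.509% and a UMI of *Col1a1* in 0.0973% to 0.713% of barcodes, depending on the library. The median depth of those insulin barcodes was 2430 to 45284 UMIs per library, and that of the mesenchymal cells was 12355 to 33593.

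At the threshold, 49 of the 160 cells held exactly 3 of the 7 genes and 87 held 6 or 7. Another 57 barcodes held 2 of the 7 and were left out. The median depth was 9098 UMIs for cells with exactly 3 genes and 7856 UMIs for the barcodes with 2. Of 342 kept barcodes with at least 3 of the genes, 150 were left out for their endothelial UMIs, 17 for their insulin UMIs, and 15 for a *Ptprc* UMI. No barcode sequence was shared between the mesenchymal cells of different libraries.

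The label was checked against genes that the rule did not use. *Des*, which encodes desmin, had a UMI in 131 of 160 cells, and *Cygb*, a cytoglobin gene known from stellate cells and fibroblasts, had a UMI in 137 cells. *Lrat*, the enzyme that esterifies retinol for storage, had a UMI in 9 cells only. The smooth muscle genes *Acta2* and *Tagln* were found in 83 and 78 cells. The values thus show cells of which most had *Des* and *Cygb* transcripts and few had *Lrat* transcripts, and the cells are called mesenchymal here rather than stellate. Fibrillar collagen genes are in the rule and are no check of the label. The share of insulin barcodes with *Des* or *Cygb* was not measured.

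Markers of other cell types were counted over whole lists. Of 10 endothelial markers, 8 were found at a summed level of 8.06 to 92.4 CPM (UMI counts scaled to an equal total in every library) in WT libraries, against 87.2 to 148 CPM in KO libraries, and *Tie1* and *Cldn5* were at 0. Of 10 macrophage markers, 6 were found, at 16.1 to 66.3 CPM in WT, against 23.7 to 81.7 CPM in KO, and *Ptprc* (which the rule barred), *C1qb*, *C1qc*, and *Adgre1* were at 0. Of 7 T cell markers, 4 were found, at 0 to 4.67 CPM in WT, against 0 to 10.1 CPM in KO, and *Cd3d*, *Cd3e*, and *Cd8a* were at 0. All 5 B cell markers were found, at 0 to 63.5 CPM in WT, against 0 to 4689 CPM in KO. Most of the last value came from 1 cell of KO2 with 3645 UMIs of the immunoglobulin gene *Igkc*. *Igkc* UMIs were found in 73.8% of the insulin barcodes of the same library, against 66.0% of its mesenchymal cells. All 9 ductal markers were found, at 85.9 to 911 CPM in WT, against 311 to 914 CPM in KO. The 10 acinar markers included 9 that were found, at 5.60 to 88.7 CPM in WT, against 11.7 to 82.2 CPM in KO. Among 8 Schwann cell markers, 7 were found, at 16.8 to 48.4 CPM in WT, against 7.91 to 175 CPM in KO, and *Gfap* was at 0. The 6 mesothelial markers were all found, at 6.53 to 309 CPM in WT, against 3.79 to 272 CPM in KO. The 5 erythroid markers included 4 that were found, at 4.14 CPM or less in every library. Of all these lists, the 7 β cell markers had the highest sums, at 5402 to 54967 CPM in WT, against 16073 to 72981 CPM in KO. The 5 alpha cell markers had 677 to 818 CPM in WT, against 868 to 3949 CPM in KO. For the 2 PP cell markers it was 234 to 1246 against 331 to 2438 CPM. Of 4 delta cell markers, 3 were found, at 80.8 to 799 CPM in WT, against 152 to 245 CPM in KO. No doublet caller was run, and mixed droplets were removed only by the limits in the rule.

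Mesenchymal cells were 1.02%, 0.587%, and 0.163% of kept barcodes in WT1 to WT3 and 0.453%, 0.810%, and 0.492% in KO1 to KO3. The WT values ran from below to above all KO values. The exact binomial 95% intervals, which cover counting error only, ran from 0.614% to 1.58% in WT1 and from 0.0531% to 0.381% in WT3 and did not overlap. The mean was 0.589% ± 0.427 in WT and 0.585% ± 0.196 in KO (SD, n = 3 mice each), and a 2-sided exact permutation test gave p = 1. A test of 3 against 3 mice cannot give a p below 0.1.

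**Figure D1:**
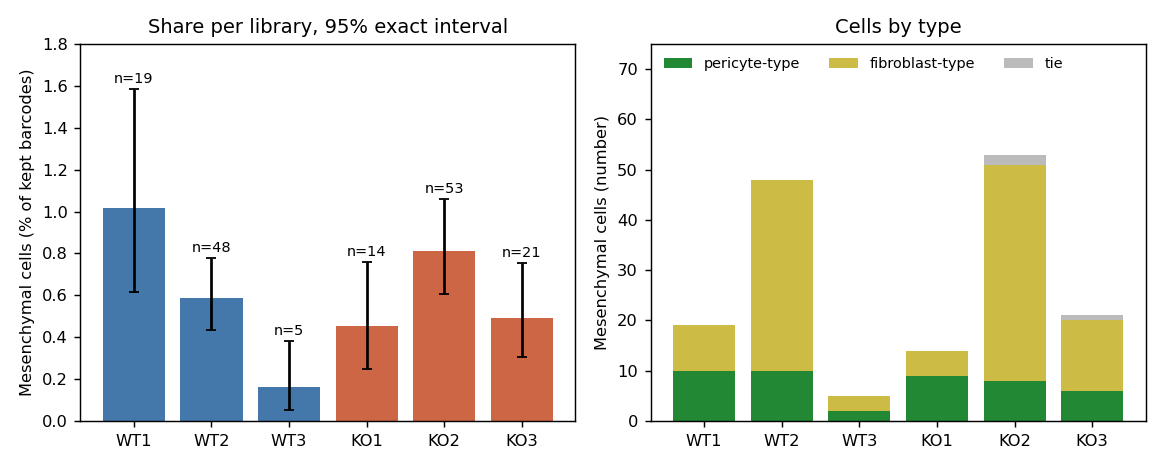
The left plot shows mesenchymal cells as a percentage of kept barcodes in each library, with bars for the share, lines for the exact 95% binomial interval, and the number of cells above each line. The right plot shows the number of cells of each type in each library, with 45 pericyte-type cells, 112 fibroblast-type cells, and 3 ties in all.

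The median UMI count of a mesenchymal cell was 12355, 23348, and 33593 in WT1 to WT3, against 13735, 14274, and 17250 in KO libraries. WT libraries 2 and 3 lay above all KO libraries and WT1 lay below them (means 23098 ± 10621 and 15086 ± 1893, SD, n = 3 each, 2-sided exact permutation p = 0.4). Hormone transcripts (*Ins1*, *Ins2*, *Iapp*, *Gcg*, *Sst*, *Ppy*, *Pyy*, and *Ttr*) took 0.649%, 2.81%, and 5.59% of the mesenchymal UMIs of WT1 to WT3, against 1.73%, 7.93%, and 2.86% for KO1 to KO3. The groups overlapped (2-sided exact permutation p = 0.6), and the limit on insulin UMIs in the rule acts on this share. It does not act on the other hormones. A cell of WT2 had 17.8% of its UMIs on hormone genes with 5.77% on insulin, and a cell of KO2 had 18.6% with 2.62%.

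The cells fell into 2 types by their UMIs on 7 pericyte genes (*Rgs5*, *Cspg4*, *Kcnj8*, *Abcc9*, *Notch3*, *Higd1b*, and *Ndufa4l2*) and on 10 fibroblast genes (*Pdgfra*, *Dcn*, *Lum*, *Dpt*, *Clec3b*, *Pi16*, *Mfap5*, *Col14a1*, *Serpinf1*, and *Fbln1*). A cell with more UMIs on the first list was called pericyte-type, and one with more on the second was called fibroblast-type. This gave 45 pericyte-type cells, 112 fibroblast-type cells, and 3 ties, and 18 cells lay near the cut with 40% to 60% of these UMIs on the fibroblast genes. In WT2, 6 of the 10 pericyte-type cells lay near the cut, with 27 to 70 *Col1a1* UMIs and at most 1 *Ednrb* UMI each. The pericyte-type values of WT2 below include these 6 cells unless cells near the cut are said to be left out. Since the same cells and genes made the split, every difference between the types below is a description without a test. The leading split genes were *Rgs5*, found in 37 of 45 pericyte-type and 40 of 112 fibroblast-type cells, and *Dcn*, found in 11 of 45 and 111 of 112. Not all list genes followed the split. The potassium channel subunit genes *Kcnj8* and *Abcc9*, known from pericytes, were found in 42.2% and 57.8% of pericyte-type cells but also in 55.4% and 59.8% of fibroblast-type cells.

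**Figure D2:**
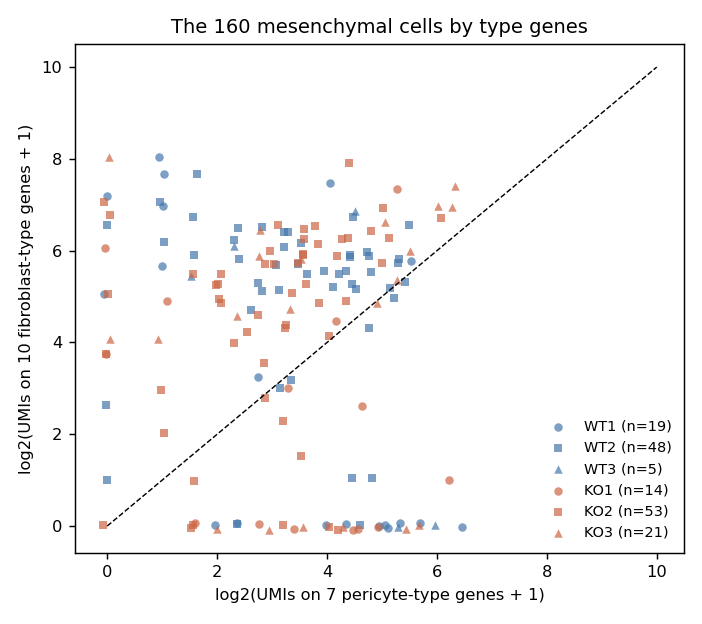
Each point is 1 of the 160 mesenchymal cells, placed by its UMIs on the 7 pericyte-type genes (horizontal, log2 of UMIs + 1) and on the 10 fibroblast-type genes (vertical, same scale), with a small random shift so that points do not hide each other, blue for WT and orange for KO, and 1 symbol per library number. The 45 pericyte-type cells lie below the dashed line of equality, many of them with no fibroblast-type UMI, and the 112 fibroblast-type cells lie above it.

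Fibroblast-type cells were 47.4%, 79.2%, and 60% of mesenchymal cells in WT1 to WT3 and 35.7%, 81.1%, and 66.7% in KO1 to KO3. In both genotypes library 1 had the lowest share and library 2 the highest (means 62.2% ± 16.0 and 61.2% ± 23.2, SD, n = 3 each, 2-sided exact permutation p = 1). Fibroblast-type cells were also deeper, with a median of 41483 UMIs against 8228 in WT1 and 15530 against 7103 in KO2. After each cell was thinned to 1500 UMIs, the shares were 47.4%, 64.6%, and 60% in WT and 28.6%, 67.9%, and 42.9% in KO libraries, and no cell was too shallow to be thinned.

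Among genes that neither the split nor the rule used, *Ednrb* and *Mgp* had the largest smallest difference between the types over the 5 libraries with at least 5 cells of each type, which leave out WT3. *Ednrb* (chr14:103814625-103844402 in GENCODE vM21, GRCm38) encodes the endothelin B receptor. Its level in pericyte-type cells was 2190, 390, 1819, 1034, and 344 CPM in WT1 and WT2 and KO1 to KO3, against 2.51, 1.11, 121, 8.55, and 3.38 CPM in fibroblast-type cells. *Mgp* (chr6:136872435-136875823), which encodes the calcification inhibitor matrix Gla protein, had 28435, 4207, 14200, 12850, and 23475 CPM in pericyte-type cells, against 70.2, 467, 535, 179, and 2130 CPM. The types did not overlap for either gene, and the lowest pericyte-type value for *Mgp* was in WT2. A *Mgp* UMI was found in 3.44% to 11.8% of insulin barcodes and an *Ednrb* UMI in 1.26% to 4.07%, against 73.3% and 77.8% of pericyte-type cells.

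A gene is called higher in a type in the following counts if its level was higher there in all 5 libraries. Of 7159 genes with a UMI in at least 25% of the cells of either type and outside the rule and split, 504 (7.04%) were higher in pericyte-type cells and 479 (6.69%) in fibroblast-type cells. The list counts between types below set no such limit on detection. Of 20 matrix glycoprotein and proteoglycan genes that met it, 4 were higher in each type. Of 16 complement and cytokine genes that met it, 4 were higher in fibroblast-type cells and 0 in pericyte-type cells. Cells with at least 3 mesothelial markers were 4 of the 9 fibroblast-type cells of WT1 and 3 of the 5 of KO1, and held 49.7% and 82.7% of the fibroblast-type UMIs there. WT2, KO2, and KO3 had none. Without these cells, which leaves 2 fibroblast-type cells in KO1, the counts were 473 (6.61%) and 330 (4.61%). *Mgp* and *Ednrb* stayed higher in pericyte-type cells in all 5 libraries without them, and also without the cells near the cut.

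Other pericyte-type genes fell into a few roles, given here as means over the same 5 libraries. The endothelin A receptor gene *Ednra* had 228 ± 140 CPM (SD, n = 5 libraries) in pericyte-type cells and 31.9 ± 24.0 CPM in fibroblast-type cells. *Pdgfa*, a PDGF ligand, had 358 ± 167 and 47.9 ± 22.4 CPM. *Rgs4*, a G protein regulator of the same family as *Rgs5*, had 206 ± 163 and 10.3 ± 5.05 CPM. The Notch ligand gene *Jag1* had 205 ± 97.8 and 40.9 ± 24.6 CPM, and *Heyl*, a transcriptional target of Notch, had 156 ± 64.0 and 21.9 ± 18.0 CPM. Each of these genes was higher in pericyte-type cells in all 5 libraries, but *Ednra* and *Heyl* were not once the cells with mesothelial markers were left out.

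Most matrix genes did not differ in 1 direction in all 5 libraries. Of 29 matrix glycoprotein and proteoglycan genes outside the rule and split, 4 were higher in pericyte-type cells, 6 were higher in fibroblast-type cells, and 19 were mixed, and without the cells with mesothelial markers the numbers were 2, 2, and 25. The basement membrane collagen genes *Col4a1*, *Col4a2*, and *Col18a1* were higher in pericyte-type cells in all 5 libraries, as were the laminin chain genes *Lamb1* and *Lamc1*, which were mixed without the cells with mesothelial markers. *Col4a1* had 1645 ± 466 CPM in pericyte-type and 631 ± 247 CPM in fibroblast-type cells (SD, n = 5 libraries). *Col18a1*, the source of endostatin, had 401 ± 191 and 74.1 ± 16.4 CPM. *Timp3*, an inhibitor of matrix proteases that binds the matrix, had 1513 ± 998 and 113 ± 116 CPM. Of 14 collagen genes outside the rule and split, 3 were higher in pericyte-type cells in all 5 libraries, 1 (*Col16a1*) was higher in fibroblast-type cells in all 5, and 10 were mixed. These numbers were the same without the cells with mesothelial markers. A single gene of 14 is close to the 6.69% of the 7159 genes counted above, whose limit on detection 11 of the 14 met.

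Some genes of the interstitial and elastic matrix were higher in fibroblast-type cells. *Vcan*, the proteoglycan versican, had 4.65 ± 10.4 CPM in pericyte-type and 124 ± 60.8 CPM in fibroblast-type cells. *Fbln2*, *Fn1* (fibronectin), *Eln* (elastin), *Fmod*, and *Efemp1* were also higher in fibroblast-type cells in all 5 libraries, as were the collagen cross-linking and modifying enzyme genes *Lox*, *Loxl1*, and *Plod2*. Without the cells with mesothelial markers, *Vcan*, *Eln*, *Loxl1*, and *Plod2* were still higher in all 5 libraries and *Fbln2*, *Fn1*, *Fmod*, *Efemp1*, and *Lox* were mixed. *Eln* and *Plod2* were mixed without the cells near the cut. *Mmp2*, a gelatinase, was at 0 in all pericyte-type cells and had 62.1 ± 48.2 CPM in fibroblast-type cells. Its fibroblast-type level was only 12.7 CPM in KO1 and 14.2 CPM in KO2. The pericyte-type cells there were 9 and 8, with median depths of 11538 and 7103 UMIs, so a 0 in those libraries shows little. Of 22 genes for collagen processing and remodelling, 6 were higher in fibroblast-type cells in all 5 libraries, 1, *Timp3*, was higher in pericyte-type cells, and 15 were mixed. Without the cells with mesothelial markers the numbers were 5, 1, and 16.

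Some complement and cytokine genes were higher in fibroblast-type cells. *C3*, the central complement component, had a UMI in 85.7% of fibroblast-type and 15.6% of pericyte-type cells, and its level was 1183 ± 450 and 100 ± 224 CPM. All of the pericyte-type *C3* UMIs in these libraries were in WT2. *C4b*, *C1ra*, the macrophage growth factor gene *Csf1*, and *Lif* were also higher in fibroblast-type cells in all 5 libraries. Of the 19 genes of this list, 5 were thus higher in fibroblast-type cells, none was higher in pericyte-type cells in all 5, and 14 were mixed. Without the cells with mesothelial markers 4 were higher in fibroblast-type cells, and *C3*, *Csf1*, and *C1ra* were not among them, and without the cells near the cut *C3* alone was. Of the MHC and interferon genes in a list of 21 chosen after the values were seen, 7 were higher in fibroblast-type cells in all 5 libraries, among them *H2-K1*, *Cd74*, and *Gbp2*, none was higher in pericyte-type cells in all 5, and 14 were mixed. Without the cells with mesothelial markers 3 were higher in fibroblast-type cells, with *H2-K1* among them and *Cd74* and *Gbp2* mixed.

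Of 18 immediate early genes, 7 were higher in pericyte-type cells in all 5 libraries, none was higher in fibroblast-type cells, and 11 were mixed. The 7 were *Fos*, *Jun*, *Jund*, *Ier2*, *Klf6*, *Btg2*, and *Dusp1*, and *Fos*, *Jund*, *Ier2*, and *Dusp1* were still higher without the cells with mesothelial markers. *Fos* had 170 ± 143 CPM in pericyte-type and 49.9 ± 18.3 CPM in fibroblast-type cells. Most contractile genes were mixed. *Acta2* had 436 ± 291 and 414 ± 386 CPM and *Des* had 547 ± 228 and 415 ± 162 CPM, and 11 of 13 contractile genes were mixed across libraries. *Ywhaz* had 425 ± 154 and 437 ± 135 CPM.

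**Figure D3:**
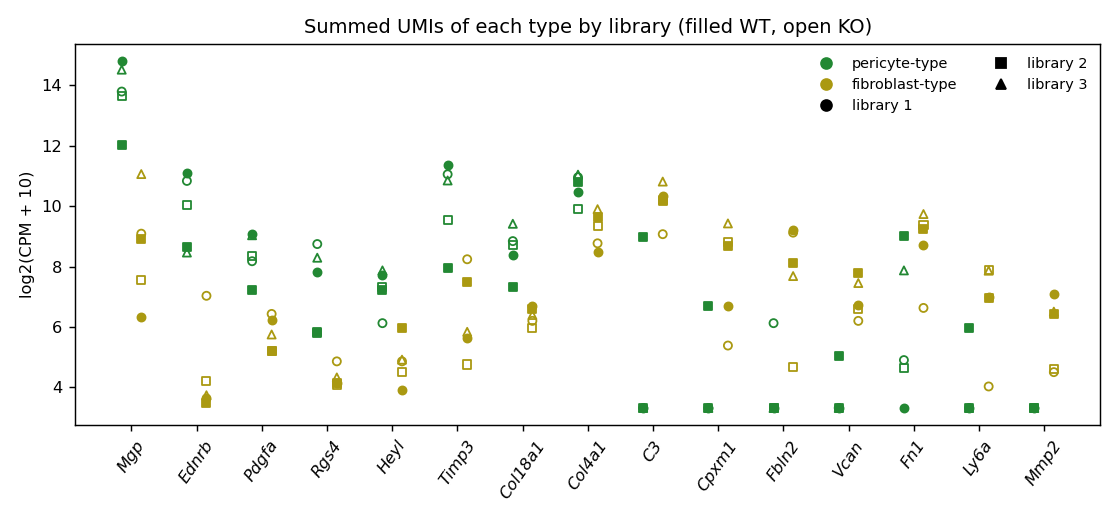
Each point is the summed level of a gene in the pericyte-type cells (green) or fibroblast-type cells (yellow) of 1 library on a log2(CPM + 10) scale, with filled points for WT, open points for KO, and symbols for the library number, over the 5 libraries with at least 5 cells of each type. Green points lie above yellow points of the same library from *Mgp* to *Col4a1* and below them from *C3* to *Mmp2*, and the lowest line of points marks libraries at 0. The fibroblast-type points of WT1 and KO1 include the cells with mesothelial markers. The pericyte-type points of KO1 and KO2 each include 1 cell with Schwann cell markers. Those of WT2 include 6 cells near the cut.

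A small group within the fibroblast-type cells carried mesothelial markers. The mesothelium is the surface layer of the pancreas and other abdominal organs. Of the 160 cells, 7 had a UMI on at least 3 of the mesothelial markers *Msln*, *Upk3b*, *Lrrn4*, *Wt1*, *Upk1b*, and *Krt19*, and they came from WT1 (4 cells) and KO1 (3 cells). Their median depth was 43339 UMIs, against 16634 for the other cells. The protease inhibitor gene *Slpi* led their transcripts, with 9042 CPM against 7.56 CPM in the other 153 cells. *Cryab*, a small heat shock protein gene, had 16508 against 583 CPM. *Ptgs2*, the inducible cyclooxygenase, had 2902 against 85.3 CPM. *Slpi* rests on few cells, since 1 cell of WT1 held 2050 of the 2765 *Slpi* UMIs of that library. Another 3 cells had at least 3 Schwann cell markers, 1 each in WT2, KO1, and KO2. The KO1 and KO2 cells, with 14355 and 17959 UMIs, counted as pericyte-type on 2 split UMIs each. Neither had a UMI of *Rgs5* or *Pdgfrb*. The WT2 cell counted as fibroblast-type on 1 split UMI. KO1 and KO2 had 9 and 8 pericyte-type cells, with median depths of 11538 and 7103 UMIs, so these cells weigh in the pericyte-type sums there. Differences between the types were not recomputed without the 3 cells with Schwann cell markers.

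Transcripts of the lymphoid chemokines *Ccl19*, *Ccl21a*, and *Cxcl13* were found in 81 of the 160 cells and were spread unevenly over libraries. A UMI of at least 1 of the 3 genes was found in 2 of 19, 34 of 48, and 0 of 5 cells in WT1 to WT3 and in 0 of 14, 35 of 53, and 10 of 21 cells in KO1 to KO3. Both libraries numbered 2 and KO3 were thus high, and the genotypes overlapped. With 3 counts as the limit that a count of 0 allows, 0 of 5 cells allows a share of up to 60% and 0 of 14 cells up to 21.4%, and the exact binomial 95% intervals reach 52.2% and 23.2%. After thinning to 1500 UMIs a cell, the shares were 5.26%, 58.3%, and 0% in WT and 0%, 49.1%, and 33.3% in KO libraries. In insulin barcodes a UMI of *Ccl19*, *Ccl21a*, or *Cxcl13* was found in at most 0.259%, 0.961%, and 0.997% in any library.

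*Ccl21a* and *Ccl19* each stand for 2 gene identifiers in the files, and the gene copies are nearly identical, so how reads were divided between the copies is uncertain and the sums over both are given. *Ccl19*, a ligand of CCR7 on T cells and dendritic cells, had 13, 457, and 0 UMIs in WT1 to WT3, against 0, 222, and 756 in KO1 to KO3. *Ccl21a*, the other CCR7 ligand, had 2, 1143, and 0 UMIs in WT, against 0, 716, and 181 in KO libraries. *Cxcl13*, which attracts B cells through CXCR5, had 7, 219, and 0 UMIs in WT, against 0, 697, and 0 in KO libraries. Single cells weighed heavily in some sums, since 1 cell held 441 of the 756 *Ccl19* UMIs of KO3 and 1 cell held 457 of the 697 *Cxcl13* UMIs of KO2.

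The cells with these chemokines were mostly fibroblast-type. In KO2, 35 of 43 fibroblast-type and 0 of 8 pericyte-type cells had at least 1 of the 3 genes, and in KO3 the numbers were 9 of 14 and 0 of 6. WT1, WT3, and KO1 had few fibroblast-type cells, of which 2 of 9, 0 of 3, and 0 of 5 had one. None of their pericyte-type cells did. The limits given above for WT3 and KO1 are over cells of both types. WT2 differed in that 7 of 10 pericyte-type cells also had one, beside 27 of 38 fibroblast-type cells. Of these 7 cells, 6 lay near the cut, with 41.3% to 49.4% of their split UMIs on fibroblast genes, 27 to 70 *Col1a1* UMIs, and at most 1 *Ednrb* UMI, and the other 1 had 2 UMIs of these chemokines. The number of B cell barcodes was 205, 1383, and 24 in WT, against 15, 1637, and 82 in KO libraries. For T cell barcodes it was 114, 589, and 7 in WT, against 13, 1497, and 83 in KO libraries. As shares of kept barcodes, B cells were 10.98%, 16.9%, and 0.784% in WT, against 0.485%, 25.02%, and 1.92% in KO libraries. T cells were 6.11%, 7.20%, and 0.229% in WT, against 0.421%, 22.88%, and 1.95% in KO libraries. WT1 thus had larger lymphocyte shares than KO3. Its share of mesenchymal cells with these chemokines was smaller, at 10.5% against 47.6% in KO3, but the mix of cell types also differed. Among fibroblast-type cells alone, 2 of 9 in WT1 and 9 of 14 in KO3 had one, and 4 of those 9 WT1 cells carried mesothelial markers. The part of these lymphocytes in the chemokine values was not tested.

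The sequences before the start sites of 2 of these genes are shown because both transcripts were high in the 2 libraries numbered 2 and at 0 in WT3 and KO1. They were taken from RefSeq (GRCm38.p6), each is the 250 bases before the start of the gene on its own strand, and capitals mark the TATA-box letters TATAAA and the variant ATAAATA, searched on both strands, where overlapping matches run together. The *Ccl21a* window lies at chr4:42773992-42774241 on the minus strand and the *Cxcl13* window at chr5:95956689-95956938 on the plus strand.
Ccl21a: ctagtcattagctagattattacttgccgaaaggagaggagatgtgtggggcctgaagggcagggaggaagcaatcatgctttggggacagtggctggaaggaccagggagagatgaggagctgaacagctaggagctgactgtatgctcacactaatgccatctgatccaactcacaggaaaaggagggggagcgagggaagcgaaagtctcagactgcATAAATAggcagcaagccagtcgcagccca
Cxcl13: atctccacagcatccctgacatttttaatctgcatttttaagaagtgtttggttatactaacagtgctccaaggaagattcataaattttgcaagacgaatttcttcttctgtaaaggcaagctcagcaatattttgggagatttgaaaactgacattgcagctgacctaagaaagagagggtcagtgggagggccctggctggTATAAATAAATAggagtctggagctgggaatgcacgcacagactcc
The variant ATAAATA was chosen after the sequences were seen. It began 30 bases before the start of *Ccl21a*, and TATAAA began 46 bases before the start of *Cxcl13*, where it overlapped 2 copies of ATAAATA. Among 32851 windows of the same length before RefSeq gene starts, 12.4% held TATAAA and 5.17% held ATAAATA. The window of *Ccl19* held neither and is not shown, because it lies over a first exon of that gene in GENCODE. A match describes letters only.

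**Figure D4:**
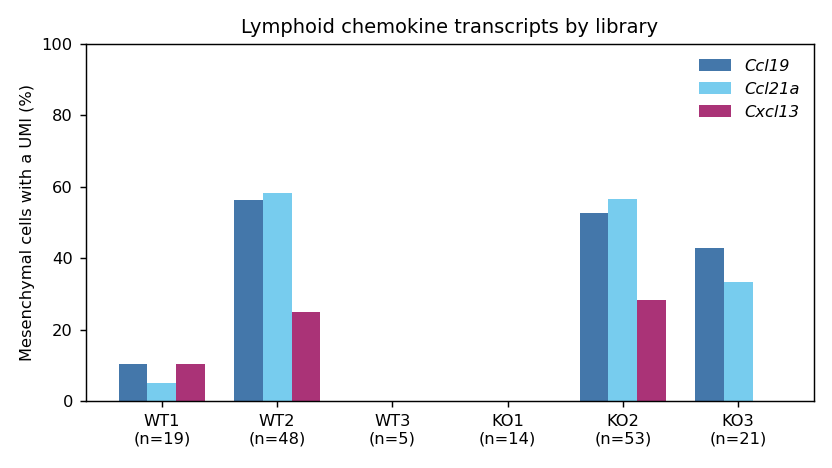
Bars show the percentage of mesenchymal cells with at least 1 UMI of *Ccl19*, *Ccl21a*, or *Cxcl13* in each library, with the number of cells under each name. WT2, KO2, and KO3 stand apart from the other 3 libraries, in which 0% to 10.5% of cells held a UMI of any of them. Those 3 libraries also held few fibroblast-type cells, with 9 in WT1, 3 in WT3, and 5 in KO1. Mesothelial markers were on 4 of the 9 in WT1 and 3 of the 5 in KO1.

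Both libraries numbered 2 also shared other genes, which were sought after the values were seen. *Fabp7*, a fatty acid-binding protein gene, had 124 and 143 CPM in WT2 and KO2 and at most 8.06 CPM in the other 4. *Mfge8*, which encodes a secreted bridging protein for the uptake of dying cells, had 875 and 945 CPM, against 135 to 422 CPM elsewhere. The replication genes *Mcm5*, *Mcm4*, and *Lig1* were also higher in both. The proliferation gene *Mki67* had a UMI in 6 of 48 and 5 of 53 cells of libraries 2 and in no cell of the other 4 libraries, which held fewer cells. *Top2a* had a UMI in 6 and 10 cells. *Pyy*, a hormone gene of endocrine cells, was also high there, at 979 and 1284 CPM against 95.3 to 156 CPM elsewhere, and its part in the other values was not tested.

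Expression was then compared between KO and WT mice on UMI sums over the mesenchymal cells of each library, with edgeR's quasi-likelihood test. Of 6043 genes tested, 0 passed an adjusted p of 0.05 (0% called, lowest adjusted p = 0.9997), 82 (1.36%) had an unadjusted p under 0.05, and DESeq2 also called 0, with 61 genes at an unadjusted p under 0.05. Values of all KO libraries lay above all WT libraries for 170 genes (2.81%) and below them for 186 genes (3.08%), 356 genes in all (5.89%). The biological coefficient of variation was 0.380, and data were simulated with this single spread for every gene. There, 68.2% of genes changed by 2 on the log2 scale were called, against 4.35% of genes changed by 1. Real genes differ in spread, so these shares do not give the reach for a gene that varies more between libraries. With 0 calls, no gene named below changed by the test, and at best large changes were within reach of it. In these sums, fewer cells of a type and less RNA per cell cannot be told apart.

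*Ywhaz* (chr15:36770770-36796929), the gene deleted in β cells, was present in mesenchymal cells of every library. Its TMM-normalized level, the scale of all genotype comparisons that follow, was 592, 359, and 336 CPM in WT1 to WT3, against 558, 346, and 401 CPM in KO1 to KO3. The groups overlapped, and the log2 fold change, KO against WT, was 0.01 ± 0.33 (SE, edgeR adjusted p = 0.9997). A 3′ count does not show whether exon 4 is present. Of the other 14-3-3 genes, 5 were tested, and the 6 together ran from −0.19 to 0.13 on the log2 scale.

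The genes with the lowest p among all tested were *Il6*, *Mfap5*, *Aldh1a2*, and *Bhlhe41*, and for each of them the groups did not overlap. *Il6* (chr5:30013114-30019981) encodes the cytokine interleukin-6. Its level was 18.6, 27.4, and 0 CPM in WT1 to WT3, against 195, 76.2, and 98.1 CPM in KO1 to KO3. The log2 fold change was 2.57 ± 0.59 (SE, edgeR adjusted p = 0.9997), and the counts behind it were 9, 27, and 0 UMIs in WT, against 48, 52, and 36 UMIs in KO. A few cells held most of them, with 29 of 48 UMIs in 1 cell of KO1 and 20 of 36 UMIs in 1 cell of KO3.

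*Mfap5* (chr6:122505845-122529290), a microfibril gene of fibroblasts that is also in the split list, had 524, 247, and 654 CPM in WT libraries, against 20.3, 95.3, and 109 CPM in KO libraries. The log2 fold change was −2.61 ± 0.60 (SE, edgeR adjusted p = 0.9997, DESeq2 adjusted p = 0.0576). It had a UMI in 5, 8, and 3 cells in WT and in 3, 4, and 2 cells in KO libraries, and 1 cell held 56 of the 65 UMIs of KO2. *Aldh1a2* (chr9:71215789-71296243), which makes retinoic acid from retinal, had 53.7, 38.5, and 61.9 CPM in WT, against 24.4, 10.3, and 13.6 CPM in KO, and the sum of UMIs was 5 to 7 in each KO library. Without the cells that had mesothelial or Schwann cell markers, its log2 fold change was −0.98, against −1.71 ± 0.44 with them. *Bhlhe41* (chr6:145858243-145865558), a transcriptional repressor of the circadian clock, had 41.3, 56.8, and 70.7 CPM in WT, against 20.3, 17.6, and 24.5 CPM in KO, with 5, 12, and 9 UMIs in KO (log2 fold change −1.38 ± 0.36, SE).

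**Figure D5:**
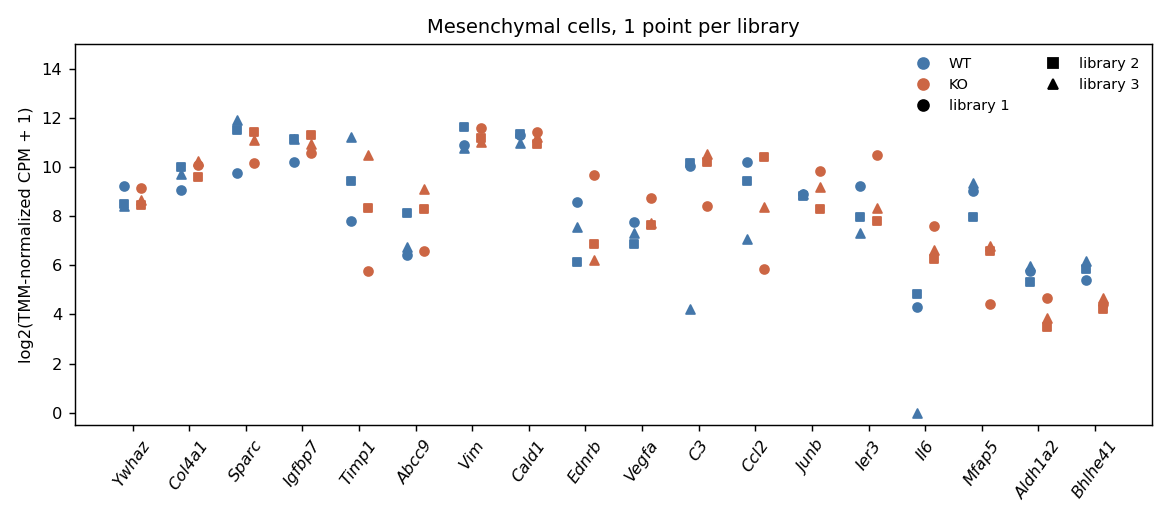
Each point is the level of a gene in the mesenchymal cells of 1 library on a log2(TMM-normalized CPM + 1) scale, blue for the 3 WT and orange for the 3 KO libraries, with symbols for the library number. The groups overlap for *Ywhaz* and for the genes up to *Ier3* and lie apart for *Il6*, *Mfap5*, *Aldh1a2*, and *Bhlhe41*, none of which passed the adjusted test.

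Gene lists were described by their counts beside those of all genes, of which 3111 were higher and 2932 lower in KO with a median of 0.01 on the log2 scale. Of 14 collagen genes tested outside the rule, 4 were higher, 10 were lower, and 0 were called, with a median of −0.36, which turned to 0.07 without KO1. *Col4a1*, a basement membrane collagen, had 533, 1027, and 849 CPM in WT, against 1078, 762, and 1213 CPM in KO libraries. The groups overlapped (log2 fold change 0.34 ± 0.32, SE), as did those of its partner *Col4a2* (0.14 ± 0.38). *Col8a1* and *Col12a1*, 2 of the 14, were lower in all KO libraries than in all WT libraries, beside 3.08% of all genes. Neither passed the adjusted test. These 2 were chosen after their values were seen.

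The 23 matrix glycoprotein and proteoglycan genes tested had 9 higher, 14 lower, and 0 called, with a median of −0.18, which turned positive without WT2. For 2 of them every KO value was under every WT value, beside 3.08% of all genes, and for none was it above. *Sparc*, a collagen-binding matrix protein gene, had 855, 2878, and 3801 CPM in WT, against 1144, 2706, and 2170 CPM in KO libraries. *Igfbp7*, a secreted matrix protein gene, had 1172, 2269, and 2280 CPM in WT, against 1502, 2533, and 1930 CPM in KO. For both genes the lowest library of each genotype was library 1.

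Of 21 genes for collagen processing and remodelling, 6 were higher, 15 were lower, and 0 were called, with a median of −0.44, which turned to 0.06 without WT3. For 4 of them every KO value was under every WT value, and for 1 it was above, beside 3.08% and 2.81% of all genes. *Timp1*, an inhibitor of matrix proteases, had 225, 689, and 2378 CPM in WT, against 52.9, 325, and 1428 CPM in KO, and 1 cell held 201 of the 269 UMIs of WT3 and 481 of the 524 UMIs of KO3. The collagen chaperone gene *Serpinh1* had a log2 fold change of −0.10 ± 0.44 (SE).

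Of 14 pericyte genes tested, 9 were higher, 5 were lower, and 0 were called, with a median of 0.32. The median was −0.50 when the pericyte-type cells alone were compared. Of the 16 genes of this list, 6 also made the split that chose those cells, *Abcc9* among them, so that median is a description only. WT3 had only 2 pericyte-type cells. *Abcc9* had 84.6, 282, and 106 CPM in WT, against 93.6, 314, and 545 CPM in KO libraries (log2 fold change 0.97 ± 0.66, SE), and its fold change was −1.06 in pericyte-type cells alone. The transcription factor gene *Ebf1* was at −0.05 ± 0.43. Contractile genes were split evenly, with 5 of 10 higher and a median of 0.06 that was negative in 5 settings, among them those without WT1, WT3, KO1, or KO2. *Vim*, the filament protein vimentin, and *Cald1*, the actin-binding protein caldesmon, were at 0.13 ± 0.29 and −0.01 ± 0.22. Of 9 fibroblast genes tested, 5 were higher and 4 lower, with a median of 0.37 that turned negative in 4 of 15 alternative settings, and *Cygb* was at −0.07 ± 0.56.

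Among 22 growth factor and receptor genes, 10 were higher and 12 lower, with 0 called. The median of −0.09 was positive in 6 of 15 alternative settings, among them those without WT2, WT3, or KO3. For 3 of these genes every KO value was under every WT value, beside 3.08% of all genes, and for none was it above. *Ednrb* had 382, 69.0, and 186 CPM in WT, against 818, 116, and 73.6 CPM in KO libraries, so the genotypes overlapped and the libraries numbered 1 were the highest in each. *Vegfa*, the growth factor for capillaries, had 217, 117, and 159 CPM in WT, against 423, 201, and 207 CPM in KO (log2 fold change 0.75 ± 0.40, SE, edgeR adjusted p = 0.9997). Its KO values were above those of WT libraries 2 and 3, and KO libraries 2 and 3 were below WT1.

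Of 18 chemokine, cytokine, and complement genes, 13 were higher, 5 were lower, and 0 were called, with a median of 0.39 that was negative without WT3 and in pericyte-type cells alone. The exceptions to overlap were *Il6* and *Lif*, a related cytokine gene, each higher in all KO than in all WT libraries. These are 2 of 18 genes, beside 2.81% of all genes tested, and *Il6* was also named for its low p. *C3* had 1057, 1137, and 17.7 CPM in WT, against 338, 1192, and 1475 CPM in KO libraries. *Ccl2*, which attracts monocytes, had 1160, 684, and 133 CPM in WT, against 57.0, 1341, and 327 CPM in KO. Both genes varied more within a genotype than between genotypes.

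Of 5 retinoid genes tested, 2 were higher and 3 lower, with the lipid droplet gene *Plin2* at 0.38 ± 0.51. Of 16 immediate early genes, 10 were higher, 6 were lower, and 0 were called, with a median of 0.35 that turned to −0.08 without KO1. *Junb* had 481, 454, and 477 CPM in WT, against 908, 315, and 581 CPM in KO libraries, and *Ier3* had 599, 247, and 159 CPM in WT, against 1416, 221, and 322 CPM in KO. KO1 was the highest for both genes. Cell cycle genes had 4 members tested, of which 3 were higher.

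Of 80 subunit genes of the respiratory chain and ATP synthase, 49 were higher, 31 were lower, and 0 were called, with a median of 0.06 against 0.01 over all genes, which was negative without WT1, without KO2, and in pericyte-type cells alone. No subunit gene had an unadjusted p under 0.05. The lymphoid stroma list (13 tested, 11 higher, median 0.46) and the interferon and antigen presentation list (15 tested, 10 higher, median 0.52) were chosen after the values were seen and had 0 genes called. The first median ran from 0.0032 to 2.03 over the alternative settings, and the second was negative without WT3 and in pericyte-type cells alone, with a lowest value of −1.06.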

How the data were processed

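Islets from 6 mice (3 WT, 3 β14-3-3ζ–KO) were profiled by droplet single-cell RNA-Seq (Chromium 3′, v3.1), 1 library per mouse. The authors deposited UMI counts per gene and barcode, unnormalized, made with Cell Ranger 6.0.2 on mm10 (submitters' processing notes, which also name Seurat). Counts were read as deposited; 43445 barcodes held 32285 genes, and 27004 barcodes with at least 500 genes and at most 10% mitochondrial UMIs were kept. Mesenchymal members followed the rule given above and held 124075 to 1071215 UMIs per library. Members and gene lists were chosen with earlier results of these data known.

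Counts were summed per library and compared with edgeR 4.0.16 (quasi-likelihood, TMM, filterByExpr, Benjamini-Hochberg, R 4.3.3), with DESeq2 1.42.0 as an alternative. The fit was checked on simulated data. CPM are member UMIs scaled to 1000000 per library. For a single value per library, the test was a 2-sided exact permutation test. Shares have Clopper-Pearson 95% intervals, which cover counting error only. Genes named were those of the rule, *Ywhaz*, the 2 genes of highest mean CPM in each list (except the cell cycle, 14-3-3, and respiratory chain lists), and the 4 genes of lowest p; others were chosen after their values were seen, and 1 gene of the rule is not reported here. For type differences, a gene was called higher in all 5 libraries on log2(CPM + 10). Of 32285 identifiers, 32158 were in GENCODE vM21. Alternatives were DESeq2, no filter on low counts, a replicate block, at least 4 of 7 rule genes, insulin under 5%, hormone genes left out, each library left out, and, for shares, other denominators, thinning, and other split genes. Settings without both libraries numbered 2, with pericyte-type cells only, and without cells with mesothelial or Schwann cell markers, and type differences without cells with mesothelial markers or near the cut, were added after the data were seen. Same-numbered libraries were not taken as pairs, because nothing states that same-numbered mice were littermates or processed together. The correlation of their deviations from the group means was 0.42, 0.55, and −0.08. For libraries with different numbers it ran from −0.58 to 0.26. The biological coefficient of variation was 0.242 with the replicate block, against 0.380 without it.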

Additional observations from a re-analysis of the deposited data

How the results depend on the processing

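No gene was called in the main comparison or in any of the 15 alternative settings, in which 58 to 270 genes had an unadjusted p under 0.05 and the lowest adjusted p of any gene was 0.0576 (DESeq2, *Mfap5*). The replicate block, which takes same-numbered libraries as pairs, called 0 genes with 229 at an unadjusted p under 0.05 and a lowest adjusted p of 0.0634. The numbers were not taken as pairs, and under this block no tested value crossed its threshold. For the 4 values per library, no p passed 0.05 in any setting, which 3 against 3 mice do not allow in any case.

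With 0 calls, the alternatives bear on direction only. The difference in the mesenchymal share of barcodes, KO minus WT in percentage points, was −0.00403 and turned to 0.0224 with at least 4 of the 7 rule genes, 0.107 without *Ptprc* barcodes in the denominator, and 0.0124 among barcodes with at least 1000 genes, and ran from −0.217 to 0.210 when each library was left out. The difference in the fibroblast-type share was −1.01 percentage points and turned to 3.13 with at least 4 rule genes, 5.12 with insulin under 5%, and 0.118 with *Pdgfra* and *Dcn* set against *Rgs5* alone, and ran from −11.0 to 11.7 with a library left out. For the hormone share, 1.16 percentage points turned to −0.824 without both libraries numbered 2 and ran from −0.721 to 2.44 with a library left out. The difference in UMIs per cell ran from −13384 to −2765 with a library left out and kept its sign in every setting.

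Of 23 named genes tested, 5 (*Il6*, *Mfap5*, *Aldh1a2*, *Bhlhe41*, and *Vegfa*) kept their direction in every setting that could be fitted. All but *Vegfa* were named for their low p in these same data and had groups that did not overlap. Their kept direction is therefore no further support. The log2 fold changes that turned were, with at least 4 rule genes, *Col4a2* −0.0037, *Cald1* 0.022, *Ccl2* 0.34, and *Junb* −0.031. With insulin under 5% they were *Col4a2* −0.057, *Igfbp7* −0.039, *Ebf1* 0.012, and *Ccl2* 0.0032. Without the filter on low counts, *Ywhaz* was −0.00036, and under the replicate block *Ebf1* was 0.015. In pericyte-type cells alone they were *Ywhaz* −0.56, *Col4a1* −0.10, *Col4a2* −0.41, *Igfbp7* −0.44, *Abcc9* −1.06, *Vim* −0.31, *Ednrb* −0.19, and *Plin2* −0.78. That setting had 2 cells in WT3 and 1314 genes tested, and *Abcc9* is one of the genes that made the split. Without both libraries numbered 2, *Ebf1* was 0.23, *Cald1* 0.19, and *Cygb* 0.13, and without cells with mesothelial or Schwann cell markers *Ebf1* was 0.15, *Vim* −0.21, *Cald1* 0.027, and *Cygb* 0.079. The cause was not tested.

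When single libraries were left out, the fold changes that turned ran from −0.21 to 0.32 for *Ywhaz*, −0.15 to 0.38 for *Col4a2*, −0.73 to 0.11 for *Sparc*, −0.19 to 0.23 for *Igfbp7*, −2.49 to 0.40 for *Timp1*, −0.45 to 0.17 for *Serpinh1*, −0.39 to 0.39 for *Ebf1*, −0.052 to 0.46 for *Vim*, −0.13 to 0.10 for *Cald1*, −0.48 to 0.25 for *Cygb*, −1.15 to 1.49 for *Ednrb*, −0.12 to 0.89 for *C3*, −1.77 to 0.46 for *Ccl2*, −0.070 to 0.66 for *Junb*, and −0.33 to 1.65 for *Ier3*.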
